A study of Mus musculus with 30 samples.

Results

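The 42 genes described here carry out DNA replication, chromosome segregation and cell division in the mouse. They were chosen by name, with earlier results of these data known. All 42 were found by identifier in each of the 3 deposited tables, among 55401 genes. They fall into 7 roles. The 9 licensing and helicase genes are Mcm2, Mcm3, Mcm4, Mcm5, Mcm6, Mcm7, Cdc6, Cdt1 and Gins2. The 6 genes of the replication clamp, nucleotide supply and maintenance methylation are Pcna, Tyms, Rrm1, Rrm2, Tk1 and Uhrf1. The 6 cyclin and kinase genes are Ccne1, Ccne2, Ccna2, Ccnb1, Ccnb2 and Cdk1. The 16 genes of mitosis are 8 of mitotic kinases, the checkpoint and ubiquitin ligation (Plk1, Aurka, Aurkb, Bub1, Bub1b, Cdc20, Ube2c and Birc5) and 8 of the centromere, kinesins and spindle (Cenpa, Cenpe, Cenpf, Kif11, Kif20a, Kif23, Tpx2 and Nusap1). The remaining 5 are the chromatin and proliferation genes Mki67, Top2a and Hmgb2, the tubulin gene Tuba1b, and Stmn1, a regulator of tubulin.

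RNA was sequenced from 30 libraries of mouse tumours, 5 in each of 6 groups. The tumours grew from 4T1-GFP, a mammary carcinoma line marked with green fluorescent protein, in mice labelled wild-type. The 4T1 CTRL and 4T1 C269 groups are cells sorted as 4T1-GFP. The CD4 CTRL, CD4 C269, CD8 CTRL and CD8 C269 groups are T cells positive for CD4 or CD8, taken from the tumours with magnetic beads. CTRL mice were given a control antibody of the IgG1 class and C269 mice the antibody C269 against extracellular NAMPT (eNAMPT), an enzyme of NAD synthesis that cells also release. Doses of C269 were 2.5 mg/kg, 2 per week, over 1 month. The CTRL groups had the same schedule of 2 per week over 1 month, with no dose listed. Neither age nor whether the 5 replicates of a group came from different mice is given in the sources used here. Every p therefore measures the spread between these libraries alone. Libraries are named by the column numbers of the tables: 1 to 5 are 4T1 CTRL, 6 to 10 4T1 C269, 11 to 15 CD4 CTRL, 16 to 20 CD4 C269, 21 to 25 CD8 CTRL and 26 to 30 CD8 C269.

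A dividing cell licenses its replication origins by loading the ring of Mcm2 to Mcm7 with the help of Cdc6 and Cdt1. In S phase it fires these origins with factors that include Gins2, and copies the DNA with the clamp Pcna. It then condenses, aligns and separates its chromosomes in mitosis. Genes of licensing and S phase are known targets of E2F factors, while genes of late S phase and mitosis are known targets of the MuvB complex with B-Myb and FoxM1, through the cell cycle homology region (CHR) and CCAAT boxes. In a tumour, both the carcinoma cells and T cells that have met antigen can divide, and these transcripts are widely read as marks of cells in cycle. RNA from a bulk fraction is an average over its cells: a lower level of a member can come from fewer cells in that phase or from less RNA in each, and these cannot be told apart here.

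The promoters of 4 members on which the comparisons below turn are shown: Cenpf of the mitosis genes, Top2a, Cdk1, and Mcm6 of the licensing genes. Each stretch is 160 bases of the RefSeq promoter table (GRCm38.p6), read 5′ to 3′ on the gene's strand, upstream of the start site. The Cdk1 stretch stops 26 bases before the RefSeq start, because the GENCODE start lies further upstream. Capitals mark every match, on either strand, to the E2F core (spelled TTCCCGC, also spelled TTCGCGC, also spelled TTGCCGC, also spelled TTGGCGC), the CHR (TTTGAA or TTTAAA) or the CCAAT box (CCAAT).
Cenpf, chr1:189688087-189688246, minus strand: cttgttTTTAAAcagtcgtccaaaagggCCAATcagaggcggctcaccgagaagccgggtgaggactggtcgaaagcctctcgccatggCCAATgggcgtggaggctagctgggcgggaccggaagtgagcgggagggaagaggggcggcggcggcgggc
Top2a, chr11:99024190-99024349, minus strand: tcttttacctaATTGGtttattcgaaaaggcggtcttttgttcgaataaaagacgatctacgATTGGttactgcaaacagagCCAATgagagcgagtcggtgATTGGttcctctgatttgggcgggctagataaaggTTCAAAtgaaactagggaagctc
Cdk1, chr10:69352939-69353098, minus strand: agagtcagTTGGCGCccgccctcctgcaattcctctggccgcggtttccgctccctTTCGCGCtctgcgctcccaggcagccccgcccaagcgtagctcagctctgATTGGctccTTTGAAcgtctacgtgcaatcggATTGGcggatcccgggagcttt
Mcm6, chr1:128359706-128359865, minus strand: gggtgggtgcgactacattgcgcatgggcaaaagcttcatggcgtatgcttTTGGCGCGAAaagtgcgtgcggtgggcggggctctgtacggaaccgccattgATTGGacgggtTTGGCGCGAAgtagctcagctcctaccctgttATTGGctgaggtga
In the Mcm6 stretch the capitals are 2 E2F cores, each read on both strands with the matches overlapping, and 2 CCAAT boxes. In the Cenpf stretch they are 2 CCAAT boxes and 1 CHR, in the Top2a stretch 4 CCAAT boxes and 1 CHR, and in the Cdk1 stretch 2 E2F cores, 2 CCAAT boxes and 1 CHR. A further CHR of Cdk1, 15 bases before the RefSeq start, lies outside the stretch shown. Over the whole promoter window of 250 bases before to 50 after the start, 34 of the 42 members were matched by symbol, with 36 promoters. Mcm4, Ccna2, Ccne2, Aurkb, Kif20a, Tpx2, Gins2 and Stmn1 were not matched. An E2F core lay in 7 of 8 licensing promoters (87.5%), in 0 of 13 mitosis promoters and in 9.57% of all 32851 promoters in the table. A CHR lay in 2 of 8 licensing promoters (25%), in 11 of 13 mitosis promoters (84.6%) and in 27.6% of all. A CCAAT box lay in 6 of 8 (75.0%), 11 of 13 (84.6%) and 37.4% of them. These matches describe letters in a window and are not evidence of binding.

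Counts assigned to genes ran from 2005579 to 5176494 per library. The lowest were in CD8 C269, with 2005579 to 3268974 counts and 12208 to 15786 genes detected. T cell markers (7 genes) summed to 1022 to 2451 CPM (counts scaled to a library total of 1000000) in CD4 CTRL, 2978 to 3911 CPM in CD8 CTRL and 9.78 to 164 CPM in 4T1 CTRL. Cd4 was at 71.3 to 192 CPM in CD4 CTRL against 3.08 to 12.2 CPM in CD8 CTRL, and Cd8a and Cd8b1 summed to 775 to 1184 CPM in CD8 CTRL and 21.9 to 42.6 CPM in CD4 CTRL. Epithelial markers (6 genes) summed to 226 to 577 CPM in 4T1 CTRL, 213 to 330.1 CPM in CD4 CTRL against 35.9 to 105 CPM in CD8 CTRL. By these genes the libraries labelled 4T1 overlapped with CD4 CTRL. Neutrophil markers (6 genes) summed to 3811 to 13771 CPM in 4T1 CTRL, 568 to 865 CPM in CD4 CTRL against 250.4 to 498 CPM in CD8 CTRL. The 4T1 C269 libraries 9 and 10 stood apart from the rest, with the goblet cell gene Muc2 at 4408 and 5348 CPM against at most 10.6 CPM in the other 28 libraries, and with epithelial sums of 5649 and 5442 CPM. Xist, the RNA of the inactive X chromosome, was at 0.449 and 0.193 CPM in this pair against 528 to 2093 CPM in the other 28. Results from 4T1 C269 are therefore given with and without these libraries. Fibroblast markers (5 genes) summed to 3119 to 53303 CPM in 4T1 CTRL, 579 to 6050 CPM in CD4 CTRL and 329 to 886 CPM in CD8 CTRL.

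**Figure D1:**
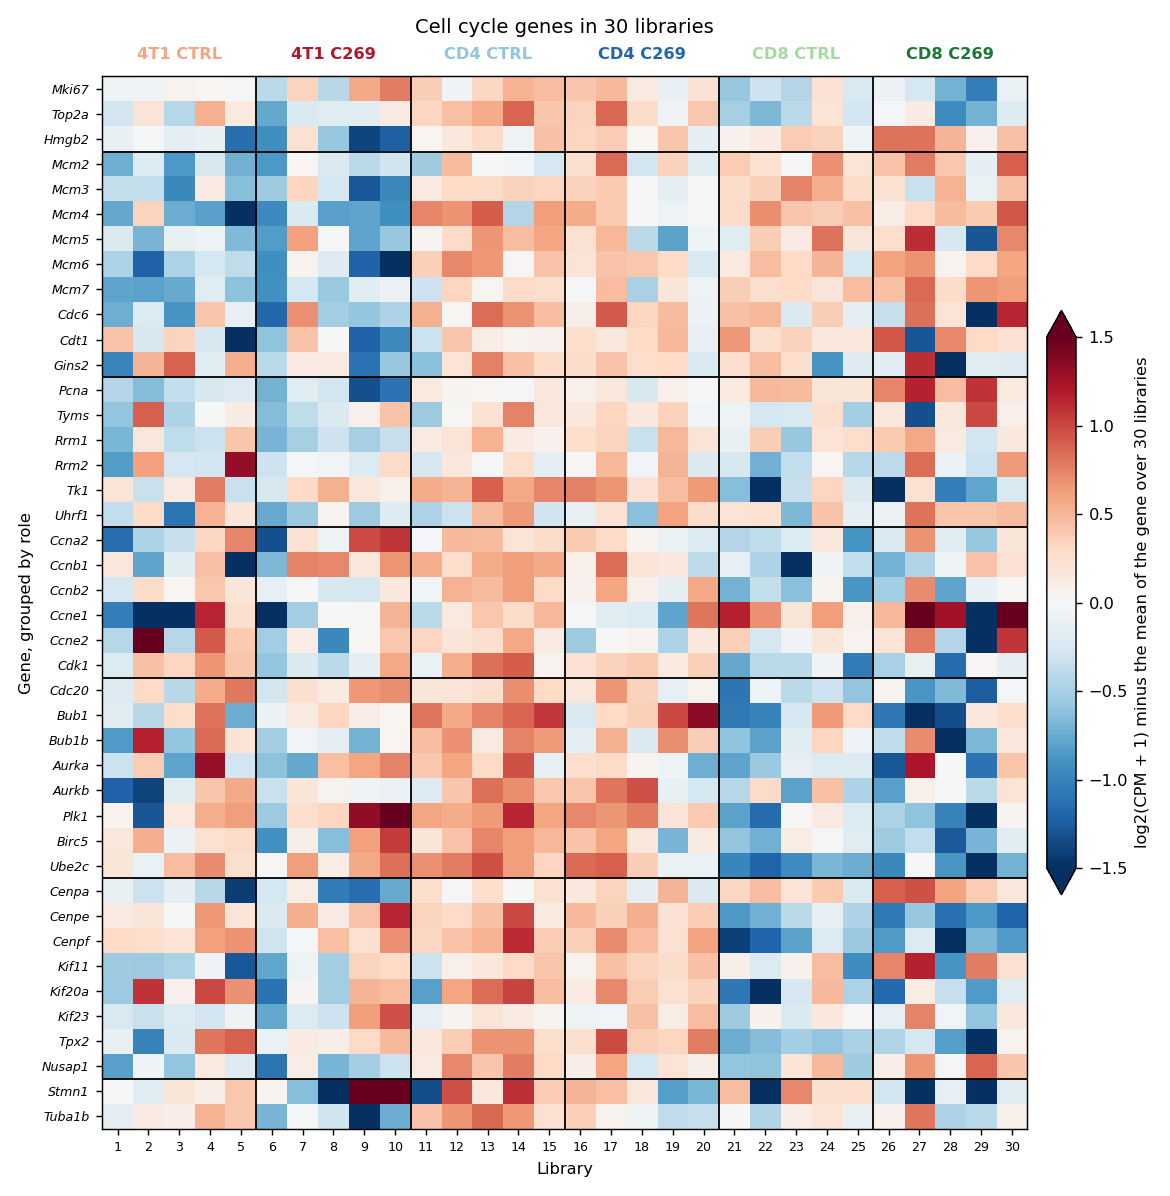
Level of each of the 42 members in each of the 30 libraries, as log2(CPM + 1) minus the member's mean over all libraries. Columns are libraries ordered by group, rows are members ordered by role, and the colour scale shows how far a library lies above or below the member's mean. The CD4 columns are mostly above the mean, while the CD8 columns are below it for most mitosis rows and near or above it for the licensing rows.

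Among the CTRL groups the members stood highest in CD4 T cells. CD4 CTRL had the highest mean log2(CPM + 1) of the 3 CTRL groups for 31 of 42 members and the lowest for 0. CD8 CTRL had the highest mean for 8 and the lowest for 24, and 4T1 CTRL the highest for 3 and the lowest for 18. The low end of the order depended on the role. 4T1 CTRL was lowest for 8 of 9 licensing genes, and CD8 CTRL was lowest for 7 of the 8 genes of mitotic kinases, the checkpoint and ubiquitin ligation, for all of which CD4 CTRL was highest. The heat map of levels by library shows both patterns. In the order of Mki67, the widely used proliferation antigen, CD4 CTRL (145 ± 21.4 CPM, SD, n = 5) was followed by 4T1 CTRL (114 ± 4.37 CPM, SD, n = 5) and CD8 CTRL (97.4 ± 22.2 CPM, SD, n = 5). The groups overlapped and no pair passed the test. CD8 against CD4 gave a log2 fold change of -0.50, SE 0.22, adjusted p = 0.192, 4T1 against CD4 log2 fold change -0.29, SE 0.22, adjusted p = 0.464, and 4T1 against CD8 log2 fold change 0.21, SE 0.22, adjusted p = 0.503.

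Several genes of mitosis were lower in CD8 than in CD4 T cells of control tumours, while no licensing gene passed the test. In the edgeR quasi-likelihood test with Benjamini-Hochberg adjustment, 7 of 42 members (16.7%) were lower in CD8 CTRL and 0 were higher, where 5.25% of the 14731 genes tested were lower, 1.76% higher and 7.01% either. The 7 were Cenpf, Ube2c, Cenpe, Cdk1, Top2a, Tpx2 and Ccnb2. Of all members 33 lay lower and 9 higher, with a median log2 fold change of -0.39 against -0.015 over all genes tested. Of the 16 mitosis genes 15 lay lower, with a median log2 fold change of -0.75, and 4 passed. Of the 9 licensing genes 5 lay lower, with a median of -0.05, and 0 passed (smallest adjusted p = 0.322, Mcm2).

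Cenpf (ENSMUSG00000026605, chr1:189640606-189688086, minus strand, GRCm38) encodes a large kinetochore protein made ahead of mitosis. Its level was 109, 118, 127, 193 and 115 CPM in CD4 CTRL against 32.7, 38.2, 50.004, 76.6 and 59.4 CPM in CD8 CTRL. Every CD8 library lay below every CD4 library, and the difference had a log2 fold change of -1.28, SE 0.22, adjusted p = 0.000537. Ube2c (ENSMUSG00000001403, chr2:164769898-164778822, plus strand, GRCm38) encodes the ubiquitin-conjugating enzyme that works with the anaphase-promoting complex (APC/C). Its level was 88.1, 94.3, 106, 84.8 and 68.4 CPM in CD4 CTRL against 27.1, 23.2, 27.8, 33.5 and 32.2 CPM in CD8 CTRL. These groups too did not overlap, with a log2 fold change of -1.55, SE 0.27, adjusted p = 0.000608. Tpx2 (ENSMUSG00000027469, chr2:152847964-152895321, plus strand, GRCm38) activates Aurora A on the spindle. Its level was 45.6, 52.6, 64.9, 65.02 and 48.7 CPM in CD4 CTRL against 23.8, 25.5, 28.1, 26.5 and 28.6 CPM in CD8 CTRL. All 5 CD8 libraries were within a narrow band below the lowest CD4 library, with a log2 fold change of -0.98, SE 0.29, adjusted p = 0.0336.

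The other members that passed were Cenpe, a kinetochore motor (log2 fold change -0.89, SE 0.20, adjusted p = 0.00626), Cdk1, the kinase that drives entry into mitosis (log2 fold change -0.94, SE 0.24, adjusted p = 0.0135), Top2a, the topoisomerase that untangles sister chromatids (log2 fold change -0.76, SE 0.21, adjusted p = 0.0225), and Ccnb2, a cyclin partner of Cdk1 (log2 fold change -0.80, SE 0.24, adjusted p = 0.03402). For Cenpe and Top2a the groups did not overlap in CPM. For Cdk1 and Ccnb2 they did. The CD4 and CD8 CTRL groups did not overlap for 12 of 42 members (28.6%), all lower in CD8, against 15.9% of all genes in either direction. Among these were Plk1, the polo-like kinase, at 58.0 ± 11.1 CPM in CD4 CTRL against 27.5 ± 9.96 CPM in CD8 CTRL (SD, n = 5, log2 fold change -0.996, SE 0.49, adjusted p = 0.268), and Ccnb1, the main cyclin of Cdk1, at 33.9, 27.7, 34.2, 36.01 and 34.6 CPM and 20.98, 16.4, 6.89, 21.9 and 17.5 CPM (log2 fold change -0.91, SE 0.35, adjusted p = 0.121). Neither passed the test, although every CD8 library was below every CD4 library. Cenpa, the centromeric histone, was the 1 mitosis gene that lay higher in CD8, at 147 ± 14.5 CPM in CD4 CTRL against 157 ± 27.2 CPM in CD8 CTRL (SD, n = 5, log2 fold change 0.17, SE 0.25, adjusted p = 0.796).

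Of the 15 licensing, clamp and nucleotide genes none passed between CD8 and CD4. Mcm5, a subunit of the helicase ring, was at 54.7, 64.97, 84.3, 73.5 and 80.7 CPM in CD4 CTRL against 46.8, 68.7, 58.1, 94.3 and 60.4 CPM in CD8 CTRL. The groups overlapped over most of their range (log2 fold change -0.05, SE 0.33, adjusted p = 0.957). Pcna, the sliding clamp, was at 114, 106, 105, 101 and 116 CPM in CD4 CTRL against 114, 145, 144, 117 and 117 CPM in CD8 CTRL, and the CD8 libraries reached higher without passing (log2 fold change 0.32, SE 0.20, adjusted p = 0.4203). Tk1, the thymidine kinase of the salvage pathway, lay lowest against CD4 of its role without passing, at 48.6 ± 5.62 CPM in CD4 CTRL against 21.97 ± 12.8 CPM in CD8 CTRL (SD, n = 5, log2 fold change -1.08, SE 0.37, adjusted p = 0.0742).

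When each of the 30 libraries was left out in turn, Cenpf, Ube2c and Cenpe passed in all 30 fits, with adjusted p up to 0.00365, 0.00376 and 0.0314. Cdk1 passed in 28 fits (adjusted p up to 0.0511, lost without 13 or 14) and Top2a in 25 (up to 0.0799, lost without 13, 14, 21, 22 or 23). Ccnb2 passed in 23 (up to 0.0959, lost without 12, 13, 14, 21, 22, 23 or 25) and Tpx2 in 22 (up to 0.0887, lost without 12, 13, 14, 21, 22, 23, 24 or 25). Without library 13 or 14 the number lower was 3, and without 21, 22 or 23 it was 4. Over these 30 fits the number of all genes passing varied too, from 564 to 1170, against 1032 with every library. Library 14 had a T cell sum of 1022 CPM, against 2164 to 2451 CPM in the rest of CD4 CTRL. Its macrophage markers (6 genes) summed to 1884 CPM, against 351 to 849 CPM. The part of these sums in the calls was not tested. In a fit of the 2 CTRL groups alone, an alternative chosen after seeing the data, 17 members were lower and 0 higher, the added ones including Plk1, Ccnb1, Mki67 and Aurka. Over all genes the number passing rose as well in that fit, from 1032 to 2823 in either direction, so the larger count is no added result about the members. Epithelial sums moved with this result, at 213 to 330.1 CPM in CD4 CTRL against 35.9 to 105 CPM in CD8 CTRL. So did neutrophil sums, with the CD4 group again the higher, and T cell sums, with the CD8 group the higher, neither overlapping between the groups. Of the 6 epithelial genes, none at 0 throughout, Krt18 and Krt8 were highest in CD4 CTRL (medians 147 and 79.2 CPM, against 12.6 and 11.4 CPM in CD8 CTRL). Only Cdh1 went the other way, with a median of 14.1 CPM in CD4 CTRL against 23.5 CPM in CD8 CTRL. Fibroblast sums overlapped, with a median of 1504 CPM in CD4 CTRL against 631 CPM in CD8 CTRL. The part of these in the result was not tested. With no filter on low counts Tpx2 did not pass (adjusted p = 0.0684).

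**Figure D2:**
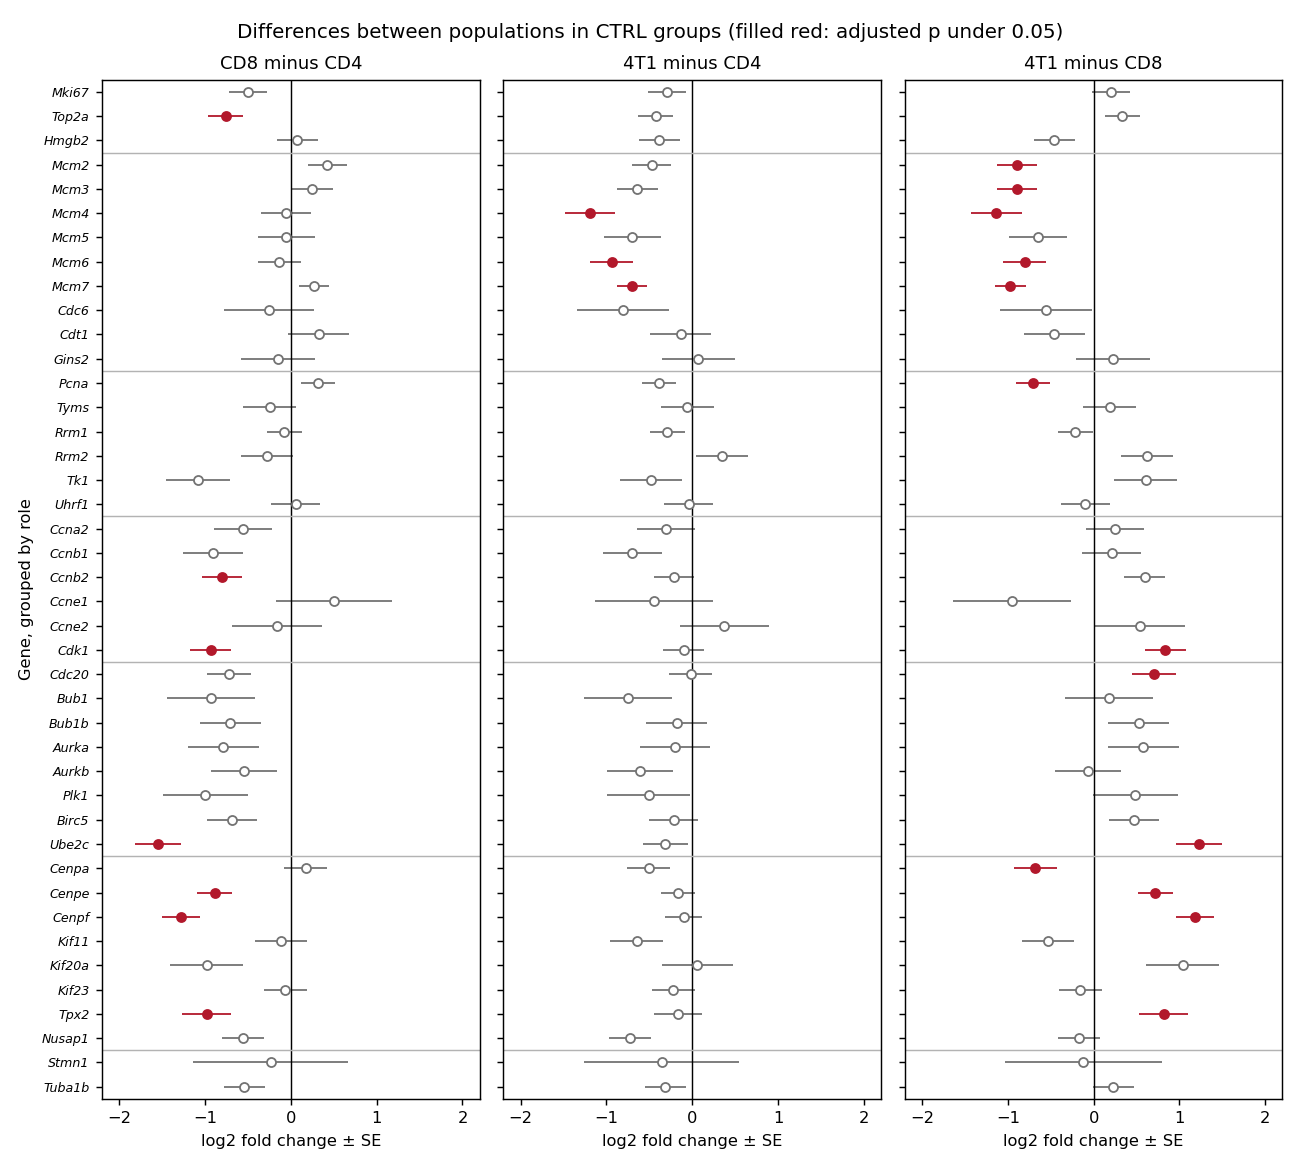
Log2 fold changes of the 42 members in the comparisons of the CTRL groups, with bars of 1 standard error. Members are ordered by role, and filled points passed the edgeR test at an adjusted p under 0.05. Points of the mitosis genes lie left of 0 for CD8 against CD4 in 15 of 16 cases, and points of the licensing genes lie left of 0 for 4T1 against CD4 in 8 of 9.

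The helicase genes Mcm4, Mcm7 and Mcm6 were lower in the 4T1 libraries than in CD4 T cells of control tumours. These were the 3 of 42 members (7.14%) that were lower, 0 were higher, and of all genes tested 3.75% were lower, 2.15% higher and 5.89% either. The count over all members is thus close to the background. The 3 are all licensing genes, of which 8 of 9 lay lower with a median log2 fold change of -0.70, against -0.02 over all genes and -0.22 for the mitosis genes. Over all members 38 lay lower and 4 higher, with a median of -0.32. This comparison uses the same CD4 CTRL libraries as the one above, in which CD4 CTRL was also the higher side.

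Mcm4 (ENSMUSG00000022673, chr16:15623897-15637400, minus strand, GRCm38) was at 40.4, 88.2, 41.2, 39.1 and 15.2 CPM in 4T1 CTRL, compared with 116, 112, 132, 51.01 and 108 CPM in CD4 CTRL. Library 2 of the 4T1 group, at 88.2 CPM, lay above the lowest CD4 library, and the others lay below all of them (log2 fold change -1.19, SE 0.30, adjusted p = 0.0144). Mcm6 (ENSMUSG00000026355, chr1:128331590-128359664, minus strand, GRCm38), whose promoter is shown above, was at 59.7, 35.3, 60.03, 69.2 and 64.1 CPM in 4T1 CTRL, compared with 107, 139, 131, 84.5 and 113 CPM in CD4 CTRL. The groups did not overlap (log2 fold change -0.94, SE 0.25, adjusted p = 0.0252). Mcm7 (ENSMUSG00000029730, chr5:138164583-138172422, minus strand, GRCm38) was at 70.4, 69.8, 72.1, 108 and 79.6 CPM in 4T1 CTRL, compared with 98.04, 153, 124, 149 and 147 CPM in CD4 CTRL, where library 4 lay above the lowest CD4 library (log2 fold change -0.70, SE 0.18, adjusted p = 0.0166). All 3 genes encode subunits of the one ring that unwinds DNA at the fork.

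Of the other ring subunits, Mcm5 was at 45.5, 32.4, 49.3, 50.2 and 33.2 CPM in 4T1 CTRL, below all 5 CD4 libraries, and did not pass (log2 fold change -0.70, SE 0.33, adjusted p = 0.214). Mcm3 likewise did not overlap between the groups and did not pass (log2 fold change -0.64, SE 0.24, adjusted p = 0.0979), and Mcm2 gave a log2 fold change of -0.47, SE 0.23, adjusted p = 0.225. The groups did not overlap for 5 members (11.9%, against 9.73% of all genes), namely Mcm3, Mcm5, Mcm6, Pcna and Cenpa, all lower in 4T1. Pcna was at 75.7, 65.2, 79.7, 87.3 and 89.7 CPM in 4T1 CTRL (log2 fold change -0.39, SE 0.20, adjusted p = 0.248). Of the genes lower in CD8 than in CD4, none passed for 4T1 against CD4: Cenpf gave a log2 fold change of -0.10, SE 0.22, adjusted p = 0.847, Ube2c log2 fold change -0.31, SE 0.26, adjusted p = 0.527 and Cdk1 log2 fold change -0.10, SE 0.24, adjusted p = 0.858.

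Mcm4 failed to pass without library 13 (adjusted p = 0.0502), Mcm6 without 2, 12, 13 or 15 (up to 0.0931) and Mcm7 without 2, 12 or 15 (up to 0.0710). Mcm4 also did not pass in a fit of the 2 CTRL groups alone (0.0778), nor Mcm7 with no filter on low counts (0.0639). Leaving out any 1 of libraries 2, 12, 13 and 15 left 1 member lower. The number of all genes passing also varied with 1 library left out, from 426 to 1072, against 868 with every library. Another scaling changed the frame of this comparison. With size factors of the DESeq2 type in edgeR, the median of all genes moved from -0.02 to 0.10 and the share of called genes that were higher from 36.4% to 53.1%, and in DESeq2 itself it was 60.3%. Relative to the median of all genes the members' median was -0.29 under each of these. T cell markers summed to 9.78 to 164 CPM in 4T1 CTRL, compared with 1022 to 2451 CPM in CD4 CTRL, and neutrophil markers to 3811 to 13771 CPM against 568 to 865 CPM. Fibroblast sums overlapped, at 3119 to 53303 CPM against 579 to 6050 CPM. The part of these in the result was not tested. Without libraries 1 and 3, the 4T1 CTRL pair with the highest B cell and erythroid sums, 3 members were lower, as with them. The genes passing in either direction meanwhile rose from 868 to 1657, so the same count was a smaller part of the calls.

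Between 4T1 and CD8 libraries of control tumours, 5 mitosis genes and Cdk1 were higher in 4T1, while 5 helicase genes, Pcna and Cenpa were lower. Of 42 members 13 passed (31.0%), where 32.1% of all genes passed, so the count over all members is no result about them. The 6 higher in 4T1 were Cenpf, Ube2c, Cdk1, Tpx2, Cenpe and Cdc20 (14.3%, against 17.5% of all genes). The 7 lower were Mcm4, Mcm7, Mcm2, Mcm3, Mcm6, Pcna and Cenpa (16.7%, against 14.6%). Both CTRL groups here also enter the comparisons above. With the other scaling the median of all genes moved from 0.03 to 0.16, and relative to it the members' median was 0.17 and 0.16. The sign split by role: 5 of 9 licensing genes (55.6%) were lower, against 14.6% of all genes, with a median log2 fold change of -0.81. Of 16 mitosis genes 5 (31.2%) were higher, against 17.5% of all genes, 1 was lower and 10 did not pass, with a median of 0.51.

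Cenpf was at 109, 106, 102, 135 and 141 CPM in 4T1 CTRL, above all CD8 CTRL libraries given earlier (log2 fold change 1.18, SE 0.22, adjusted p = 0.000221). Ube2c was at 62.01, 50.7, 75.7, 89.8 and 64.4 CPM in 4T1 CTRL, again with no overlap (log2 fold change 1.23, SE 0.27, adjusted p = 0.000996). Mcm4 was at 84.7, 114, 92.8, 90.03 and 94.8 CPM in CD8 CTRL, and only library 2 of 4T1 CTRL reached into that range (log2 fold change -1.14, SE 0.30, adjusted p = 0.00426). For Mcm7, at 159, 147, 151, 139.7 and 168 CPM in CD8 CTRL, every CD8 library was above every 4T1 library (log2 fold change -0.97, SE 0.18, adjusted p = 0.000174). Cdc20, the activator of the APC/C, gave a log2 fold change of 0.70, SE 0.26, adjusted p = 0.03603 and Cenpa a log2 fold change of -0.68, SE 0.25, adjusted p = 0.0388. Cenpa passed in 16 of 30 fits that left out 1 library (adjusted p up to 0.120, lost without 2, 4, 5, 11, 12, 14, 15, 17, 19, 20, 21, 22, 23 or 24), Cdc20 in 24 (up to 0.132, lost without 4, 5, 21, 23, 24 or 25) and Tpx2 in 25 (up to 0.131, lost without 4, 5, 21, 22 or 24). Mcm6 was lost without library 2 (adjusted p = 0.0678). The other 9 passed in all 30. Without libraries 1 and 3, 10 members were higher and 8 lower. The share of all genes in that alternative is not given here, so these counts are not read as a result about the members. T cell, neutrophil, epithelial and fibroblast sums did not overlap between 4T1 CTRL and CD8 CTRL, the T cell sums being lower in 4T1 and the others higher, and their part in the result was not tested.

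**Figure D3:**
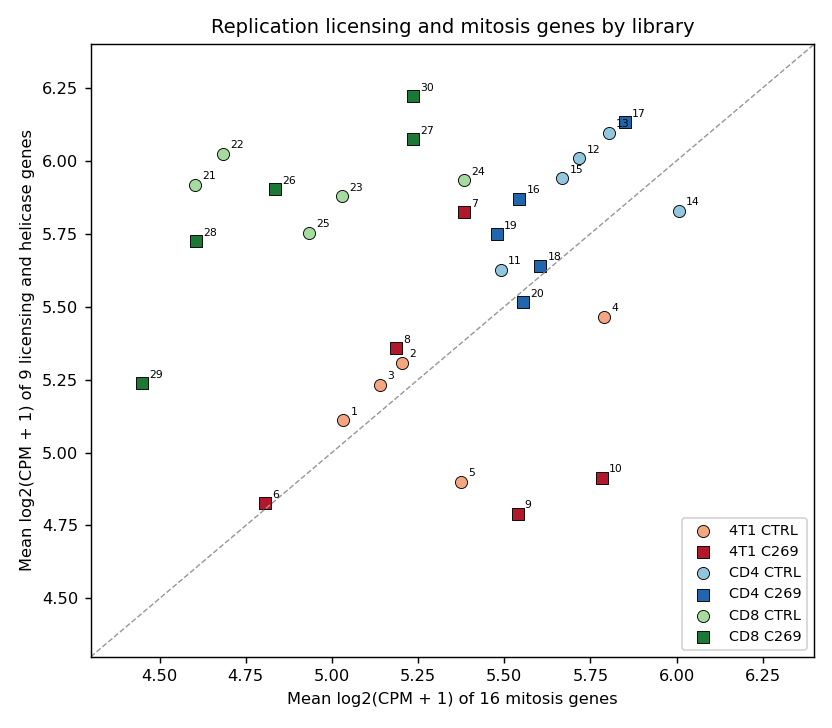
Mean log2(CPM + 1) of the 9 licensing genes against that of the 16 mitosis genes, 1 point per library, labelled with its number and coloured by group, with a dashed line of equal means. The 10 CD8 libraries lie on the licensing side of the other 20.

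The balance between licensing and mitosis genes set the CD8 libraries apart from the rest, treated or not. As a description, the mean log2(CPM + 1) of the 9 licensing genes minus that of the 16 mitosis genes was taken in each library. Its zero point has no meaning, since CPM are not scaled to gene length, but libraries can be compared. It ran from 0.55 to 1.34 in CD8 CTRL and from 0.79 to 1.12 in CD8 C269. In CD4 CTRL it ran from -0.18 to 0.29 and in CD4 C269 from -0.04 to 0.33. In 4T1 CTRL it ran from -0.47 to 0.11, and in 4T1 C269 from -0.87 to 0.44, where libraries 9 and 10 were the lowest at -0.75 and -0.87. The lowest of the 10 CD8 libraries thus lay above the highest of the other 20. The scatter of licensing against mitosis means shows these libraries apart from the others.

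**Figure D4:**
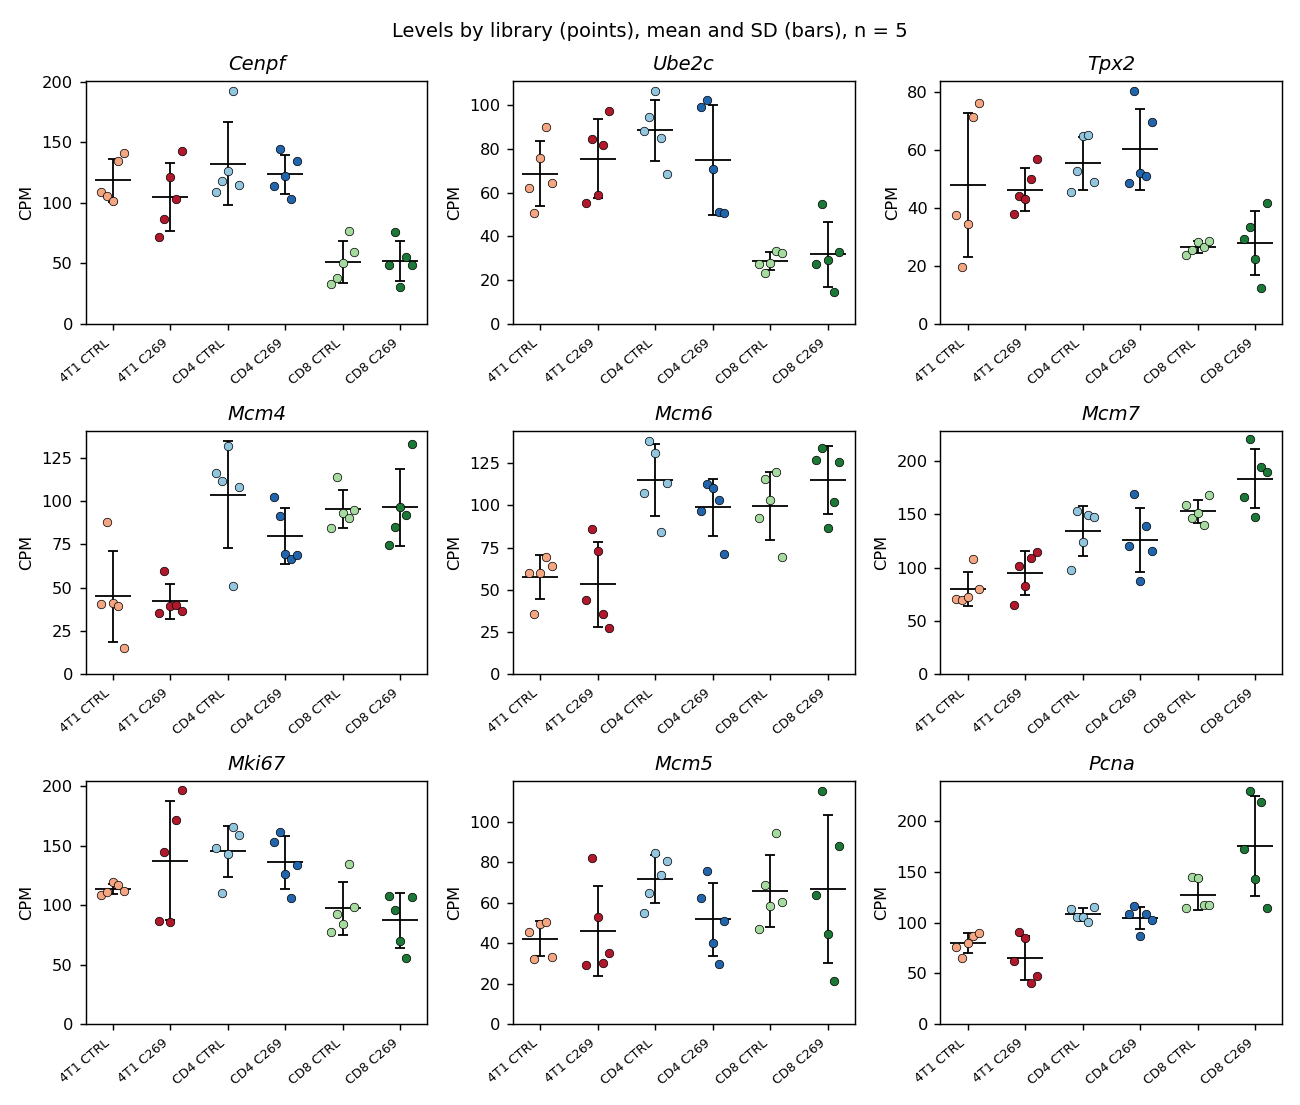
CPM of named members in every library, by group, with 1 point per library and bars at the group mean ± SD (n = 5). By group mean the mitosis genes Cenpf, Ube2c and Tpx2 are lowest in the CD8 groups, and the helicase genes Mcm4, Mcm6 and Mcm7 in the 4T1 groups.

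Under C269 no member changed past the test in any of the 3 populations. In edgeR 0 of 42 members passed in 4T1 (0.0% of 12875 genes passed), 0 of 42 in CD4 (0.0% of 12393) and 0 of 41 in CD8 (0.00914% of 10943, 1 gene). Stmn1 fell below the low-count filter of the CD8 fit and was not tested there. At an unadjusted p under 0.05 there were 1, 1 and 3 members, or 2.38%, 2.38% and 7.32%, against 12.1%, 5.62% and 6.63% of all genes. DESeq2 gave 0 members in each, where 998 genes passed in 4T1, 17 in CD4 and 18 in CD8. In the authors' deposited table the number of members with an adjusted p under 0.05 was also 0 in each population, the smallest being 0.148 (Tuba1b) in 4T1, 0.140 (Tuba1b) in CD4 and 0.5997 (Hmgb2) in CD8. Over all genes that table had 818 under 0.05 in 4T1, 12 in CD4 and 13 in CD8. The CTRL and C269 libraries overlapped for every member in each population, where the groups did not overlap for 2.3%, 0.71% and 1.24% of all genes. No member with a fold change near 0 is shown to be equal by this: standard errors of the members ran from 0.20 to 1.06 in 4T1, 0.12 to 0.57 in CD4 and 0.16 to 0.76 in CD8 on the log2 scale.

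**Figure D5:**
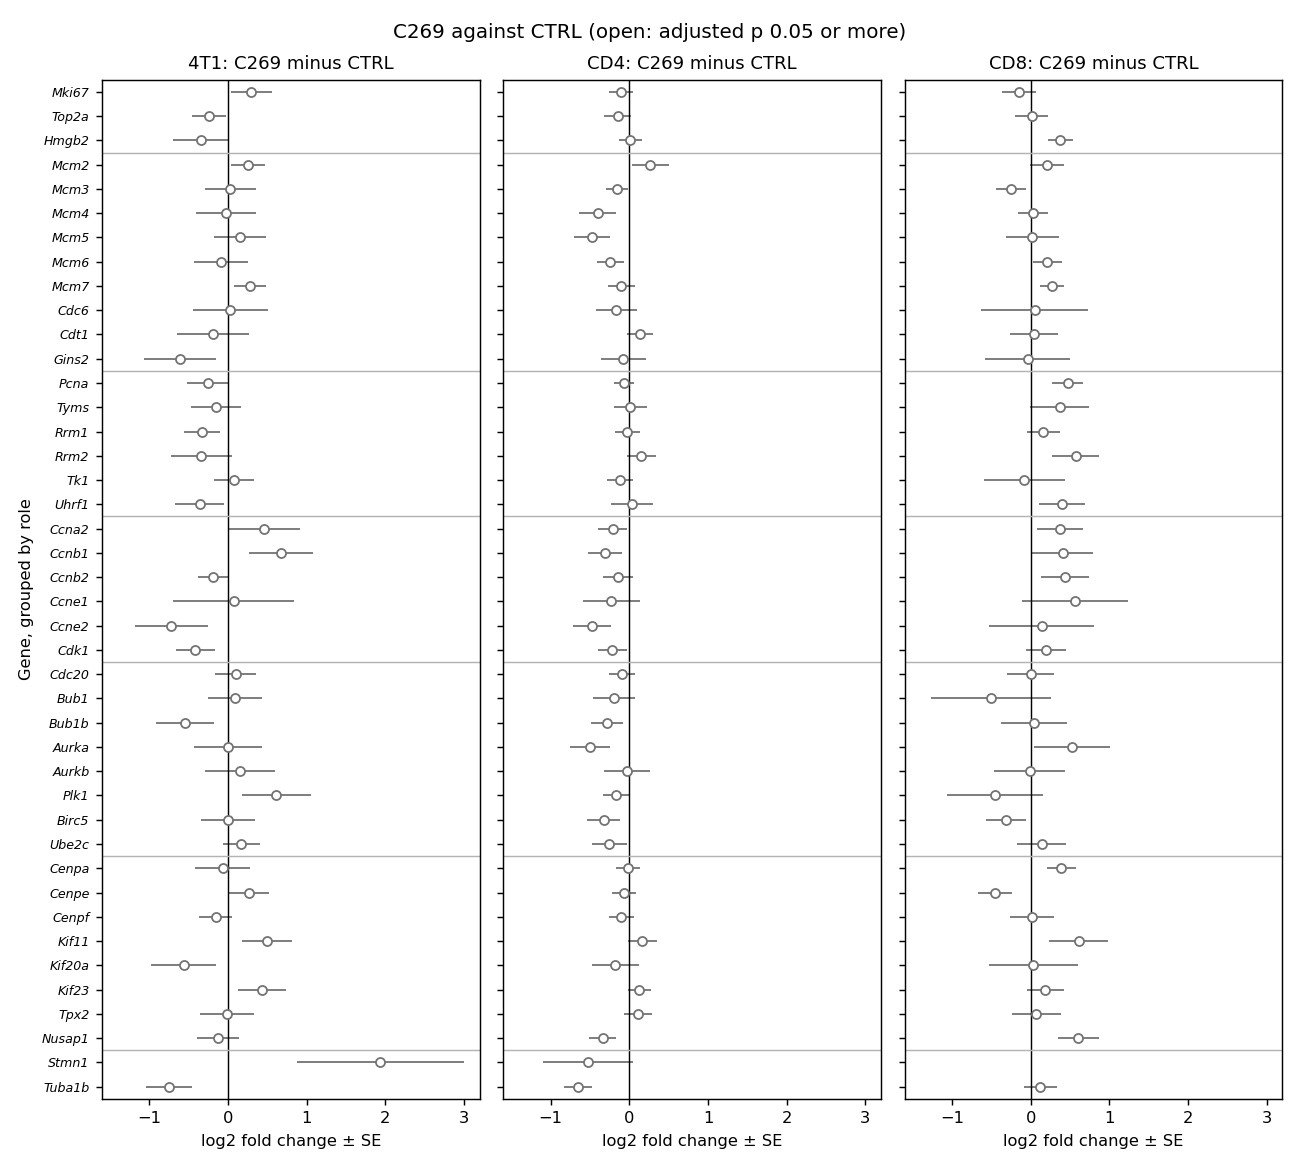
Log2 fold changes of the members under C269 against CTRL in 4T1, CD4 and CD8 libraries, with bars of 1 standard error, ordered by role. No point passed the edgeR test at an adjusted p under 0.05; in CD4 most points lie below 0 and in CD8 most above 0.

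In CD4 T cells the members leaned lower under C269 without any single gene passing. A lower level of cell cycle genes in these libraries was known when the members were chosen. The lean, also by role, is therefore a description and not independent evidence. Of 42 members 33 lay lower and 9 higher, with a median log2 fold change of -0.15 against 0.0047 over all 12393 genes. With 1 library left out this median ran from -0.21 (without 17) to -0.08 (without 19). All 6 cyclin and kinase genes and all 8 genes of mitotic kinases, the checkpoint and ubiquitin ligation lay lower (median -0.22 for each role), and the nucleotide and clamp genes were split 3 and 3. Tuba1b, an alpha tubulin, had the smallest p, at 662, 778, 889, 771 and 574 CPM in CD4 CTRL against 627, 507, 467, 377 and 385 CPM in CD4 C269. The C269 libraries were mostly below the CTRL ones, with library 16 above the lowest CTRL library (log2 fold change -0.65, SE 0.18, adjusted p = 0.699). Mcm5 followed, at 62.2, 75.4, 40.04, 29.9 and 50.7 CPM in CD4 C269 against the CTRL values above, with libraries 16 and 17 inside the CTRL range (log2 fold change -0.48, SE 0.23, adjusted p = 0.883). Aurka, the Aurora kinase of the spindle poles, was at 22.9, 26.2, 21.3, 34.01 and 15.6 CPM in CD4 CTRL against 20.5, 21.1, 17.6, 16.2 and 9.91 CPM in CD4 C269, with wide overlap (log2 fold change -0.50, SE 0.25, adjusted p = 0.885).

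Mki67 in CD4 C269 was at 153, 162, 126, 106 and 133 CPM, against 148, 111, 143, 166 and 159 CPM in CD4 CTRL (log2 fold change -0.10, SE 0.15, adjusted p = 0.948). Ccnb1 was at 24.2, 41.7, 26.3, 25.7 and 17.2 CPM in CD4 C269 (log2 fold change -0.31, SE 0.22, adjusted p = 0.906) and Pcna at 108, 116, 86.8, 109 and 103 CPM (log2 fold change -0.07, SE 0.12, adjusted p = 0.962). The values of all of these overlapped with CTRL. Epithelial markers summed to 296 to 787 CPM in CD4 C269 against 213 to 330.1 CPM in CD4 CTRL, and their part in the lean was not tested.

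In CD8 T cells the members leaned the other way, again without a call. Of 41 members 32 lay higher and 9 lower, with a median log2 fold change of 0.14 against 0.01 over all 10943 genes. With 1 library left out this median ran from 0.03 (without 27) to 0.23 (without 29), and was 0.08 without 30. All 6 cyclin and kinase genes lay higher (median 0.39), as did 5 of 6 clamp and nucleotide genes (median 0.38), while the genes of mitotic kinases, the checkpoint and ubiquitin ligation were split 4 and 4 (median -0.01). Hmgb2, a chromatin protein of dividing cells, was at 301, 312, 375, 367 and 277 CPM in CD8 CTRL and 508, 505, 409.6, 301 and 389 CPM in CD8 C269. Libraries 26, 27, 28 and 30 were above all CTRL libraries and 29 was not (log2 fold change 0.38, SE 0.16, adjusted p = 0.741). Pcna was at 172, 229.9, 143, 219 and 114 CPM in CD8 C269, with libraries 26, 27 and 29 above the highest CTRL library and 30 close to the lowest CTRL library (log2 fold change 0.47, SE 0.20, adjusted p = 0.742). Nusap1, a spindle microtubule protein, was at 38.6, 38.5, 67.7, 83.1 and 40.4 CPM in CD8 CTRL and 63.1, 93.7, 58.4, 109 and 79.05 CPM in CD8 C269, with overlap (log2 fold change 0.61, SE 0.26, adjusted p = 0.742).

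Libraries 27 and 29 had the highest epithelial sums of CD8 C269 (545 and 253 CPM, against 35.9 to 105 CPM in CD8 CTRL). They also had the fewest counts of the 30 libraries (2005579 and 2024270), the fewest genes detected (12208 and 13400) and the highest shares of ribosomal RNA counts (7.95% and 7.24%). The part of these in the values was not tested. In an alternative chosen after seeing the data that left both out, the log2 fold change of Pcna was 0.16 (adjusted p = 0.970), of Nusap1 0.33 (0.970) and of Hmgb2 0.42 (0.970). Mki67 in CD8 C269 was at 108, 95.7, 69.7, 55.8 and 107 CPM, against 77.01, 92.8, 84.4, 134 and 98.4 CPM in CD8 CTRL (log2 fold change -0.15, SE 0.21, adjusted p = 0.912). Mcm5 was at 63.8, 115, 44.7, 21.2 and 87.998 CPM in CD8 C269, reaching both below and above the CTRL range (log2 fold change 0.02, SE 0.33, adjusted p = 0.991), and Ccnb1 at 13.7, 16.5, 21.7, 31.1 and 26.8 CPM (log2 fold change 0.41, SE 0.39, adjusted p = 0.872). All overlapped with CTRL.

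In the 4T1 libraries the members showed no common direction under C269. Of 42 members 21 lay higher and 21 lower, with a median log2 fold change of -0.0037 against 0.04 over all 12875 genes. Without libraries 9 and 10, 17 lay higher and 25 lower, with a median of -0.11, and 0 passed as well. With 1 library left out the median ran from -0.17 (without 7) to 0.04 (without 4). B cell and plasma cell markers (6 genes) summed to 40.9 to 905 CPM in 4T1 CTRL, compared with 859 to 2016 CPM in 4T1 C269, and their part in any value here was not tested. Tuba1b was at 443, 535, 527, 706 and 651 CPM in 4T1 CTRL, compared with 303, 484, 399, 169.95 and 292 CPM in 4T1 C269, with library 7 above the lowest CTRL library (log2 fold change -0.75, SE 0.29, adjusted p = 0.367). Without libraries 9 and 10 its log2 fold change was -0.45 (adjusted p = 0.884). Stmn1, which destabilises microtubules, was at 3.42, 2.98, 4.03, 3.76 and 4.85 CPM in 4T1 CTRL, compared with 3.61, 1.84, 0, 31.4 and 37.1 CPM in 4T1 C269. The 31.4 and 37.1 CPM are libraries 9 and 10, the pair with high Muc2, and no other library of the 30 was above 8.502 CPM (log2 fold change 1.94, SE 1.06, adjusted p = 0.487). Without that pair the direction of Stmn1 turned, at -0.89 (adjusted p = 0.925).

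Cdk1 was at 65.9, 103, 94.8, 121 and 102 CPM in 4T1 CTRL, compared with 50.6, 65.2, 57.1, 69.1 and 114 CPM in 4T1 C269, with library 10 the highest of the treated (log2 fold change -0.41, SE 0.25, adjusted p = 0.528). Without 9 and 10 it was at -0.66 (adjusted p = 0.809). Mki67 was at 109, 111, 119, 117 and 112 CPM in 4T1 CTRL, a narrow band, and 86.9, 145, 85.7, 171 and 197 CPM in 4T1 C269 (log2 fold change 0.30, SE 0.26, adjusted p = 0.673). Libraries 9 and 10 were again the highest, and without them the log2 fold change of Mki67 was -0.02. Ccnb1 was at 25.9, 12.8, 20.4, 31.4 and 7.27 CPM in 4T1 CTRL, compared with 13.99, 39.1, 38.4, 25.8 and 36.9 CPM in 4T1 C269 (log2 fold change 0.67, SE 0.41, adjusted p = 0.535), and its log2 fold change was 0.68 without 9 and 10. Pcna, at 62.5, 90.6, 84.5, 40.9 and 47.3 CPM in 4T1 C269, was lowest in libraries 9 and 10 (log2 fold change -0.25, SE 0.27, adjusted p = 0.739), and without them its log2 fold change was 0.06. Mcm5 was at 29.3, 81.8, 52.6, 30.3 and 35.4 CPM in 4T1 C269 (log2 fold change 0.15, SE 0.33, adjusted p = 0.887), at 0.43 without 9 and 10, and without library 7 its direction turned, at -0.21.

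The opposite leans of CD4 and CD8 T cells under C269, of which that in CD4 was known beforehand, were not tested against each other as sets. The test of the difference was made gene by gene. In the contrast of the C269 effects, CD8 minus CD4, 0 of 42 members passed (0.0% of 14731 genes passed), and 2 had an unadjusted p under 0.05 (4.76%, against 3.84% of all genes). As a description, 31 members lay higher and 11 lower, with a median log2 difference of 0.31 against -0.01 over all genes. With 1 library left out the members' median ran from 0.14 to 0.38. Nusap1 had the smallest p (log2 difference 0.92, SE 0.34, adjusted p = 1.00), then Tuba1b (log2 difference 0.74, SE 0.34, adjusted p = 1.00) and Pcna (log2 difference 0.50, SE 0.28, adjusted p = 1.00). For 4T1 minus CD4, 0 of 42 passed (0.00679% of genes), with Ccnb1 first (log2 difference 1.02, SE 0.48, adjusted p = 0.512), then Stmn1 (log2 difference 2.53, SE 1.29, adjusted p = 0.555) and Mcm7 (log2 difference 0.43, SE 0.25, adjusted p = 0.608). Without libraries 9 and 10 these log2 differences were 1.01 for Ccnb1, -0.33 for Stmn1, whose direction turned, and 0.27 for Mcm7, with 0 members passing. For 4T1 minus CD8, 0 passed (0.00679% of genes), with Cenpe first (log2 difference 0.80, SE 0.29, adjusted p = 0.167), then Stmn1 (log2 difference 3.18, SE 1.33, adjusted p = 0.233) and Tuba1b (log2 difference -0.80, SE 0.34, adjusted p = 0.236). Without that pair they were 0.53 for Cenpe, 0.33 for Stmn1 and -0.52 for Tuba1b, again with 0 passing. Each pair of these contrasts shares a population.

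A further list of 74 cell cycle genes outside the 42 was read beside them, of which 73 were tested between populations. For CD8 against CD4, 2 were higher (Rpa2 and Racgap1) and 4 lower, 8.22% in all against 7.01% of all genes. Cyclin D1 (Ccnd1), which responds to growth signals, was lower in CD8 CTRL at 169.7 ± 55.9 CPM than in CD4 CTRL at 955 ± 313 CPM (SD, n = 5, log2 fold change -2.40, SE 0.31, adjusted p = 1.72e-05). Anln, a scaffold of the cleavage furrow (log2 fold change -1.81, SE 0.33, adjusted p = 0.000823), and Prc1, which bundles the central spindle (log2 fold change -1.47, SE 0.31, adjusted p = 0.00327), were lower as well, as was the inhibitor Cdkn2c (log2 fold change -1.07, SE 0.34, adjusted p = 0.0489). Of the 22 mitosis genes of this list 20 lay lower, with a median of -0.63, and of its 20 replication genes 13 lay lower, with a median of -0.09.

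For 4T1 against CD4, 0 of 73 were higher and 5 lower (6.85%, against 5.89% of all genes). Cyclin D2 (Ccnd2) was at 246 ± 36.7 CPM in 4T1 CTRL, compared with 735 ± 63.7 CPM in CD4 CTRL (SD, n = 5, log2 fold change -1.52, SE 0.22, adjusted p = 5.34e-05). Rbl2, a pocket protein of resting cells, gave a log2 fold change of -1.77, SE 0.30, adjusted p = 0.0004900, and Smc4, a condensin subunit, log2 fold change -1.28, SE 0.31, adjusted p = 0.0124. The other lower genes were Smc2 and Cdkn2d. For 4T1 against CD8, 6 were higher and 13 lower, where 32.1% of all genes passed, with Ccnd1 at 769 ± 234 CPM in 4T1 CTRL (SD, n = 5, log2 fold change 2.13, SE 0.30, adjusted p = 8.71e-06), Ccnd2 (log2 fold change -2.02, SE 0.22, adjusted p = 2.77e-07) and Rbl2 (log2 fold change -2.29, SE 0.31, adjusted p = 4.49e-06) leading. Under C269 none of the list passed: 0 of 73 in 4T1, 0 of 72 in CD4 and 0 of 69 in CD8. At an unadjusted p under 0.05 there were 9, 6 and 1, or 12.3%, 8.33% and 1.45%. The shares of all genes were 12.1%, 5.62% and 6.63%. The smallest p belonged to Ccnd2 (log2 fold change 0.92, SE 0.30, adjusted p = 0.356) and E2f2 (log2 fold change 1.28, SE 0.48, adjusted p = 0.367) in 4T1, Cdca8 (log2 fold change -0.64, SE 0.22, adjusted p = 0.776) and Ccnd3 (log2 fold change -0.42, SE 0.16, adjusted p = 0.865) in CD4, and Smc4 (log2 fold change -0.53, SE 0.24, adjusted p = 0.742) and Pold1 (log2 fold change 0.53, SE 0.26, adjusted p = 0.742) in CD8. Without libraries 9 and 10 the log2 fold change in 4T1 was 0.48 for Ccnd2 and 0.90 for E2f2.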

How the data were processed

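The deposited tables hold counts of reads per gene for 10 libraries each, made by the authors with featureCounts, per the submitters' processing notes, which also name FastQC, DESeq2 and the mm9 build. No aligner, annotation or version is given in the sources used here. Each of the tables also holds the authors' sums of counts per condition and, per the file headers, their DESeq2 results: a mean signal (counts divided by size factors), a log2 fold change of CTRL over C269, a Wald score, and a p-value and adjusted p-value. Of these only the adjusted p-value is printed. Gene starts equal those of GENCODE M21 for 54928 of 55141 identifiers (99.61%), so coordinates are given as GRCm38. No label ties a numbered column to a replicate. A column's group rests on each condition sum, which equalled the sum of exactly 1 set of 5 columns.

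Ribosomal RNA rows (7, holding 3.05% of counts, 0.579% to 7.95% per library) were left out. Depth was 2005579 to 5176494 counts. Counts were tested with edgeR 4.0.16 in R 4.3.3 (filterByExpr, TMM, quasi-likelihood), with Benjamini-Hochberg adjustment over all tested genes and a threshold of 0.05. C269 was tested within each population (10 libraries). Populations and differences of C269 effects were tested in 1 fit of all 30 libraries, so the comparisons of CTRL groups share libraries. CPM are counts divided by the library's total of counts, and means over genes use log2(CPM + 1). The scripts were tested on simulated data. Alternatives were DESeq2 1.42.0, other size factors, no filter on low counts, other sets of libraries in the fit, and leaving out libraries. The most alike replicates, libraries 1 and 3, differed by a chi-square of 5.19 per gene, where sampling noise gives about 1. The other pairs of 4T1 CTRL ran from 24.9 to 82.0. In 4T1 C269, libraries 9 and 10 differed by 11.1, and pairs of either with 6, 7 or 8 by 133 to 180. Whether libraries of a pair came from the same mouse was not tested. All 5 of each group were counted, so n = 5 is a number of libraries.

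Members and lists were chosen with earlier results of these data known, among them a lower level of cell cycle genes as a list in CD4 libraries under C269, so their direction there is not independent evidence. Members given in every library are those passing a C269 comparison, or else the 3 with the smallest p, the 3 passing members with the largest change in each CTRL comparison, and Mki67, Mcm5, Ccnb1 and Pcna. Of the further list, up to 3 passing genes or the 2 with the smallest p are given with values. Other genes named were chosen after their values were seen. Promoter sequences are from RefSeq (GRCm38.p6).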

Additional observations from a re-analysis of the deposited data

Results flagged for a closer look

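In groups of 5 libraries, a level was set apart when its gap to the nearest other library was over 0.71 of the range of its group. Of 102 groups of libraries checked, for 17 genes in 6 groups, 7 held such a library, where chance gives about 1 in 20. In CD4 CTRL these were Ccnb1 in library 12, at 27.7 CPM against 33.9 to 36.0 CPM in the others, and Cenpf in library 14, at 193 CPM against 109 to 127 CPM. Library 14 also had the lowest T cell sum (1022 CPM) and the highest macrophage sum (1884 CPM) of CD4 CTRL. In 4T1 CTRL, Hmgb2 was at 131 CPM in library 5 against 261 to 282 CPM, and Mcm6 at 35.3 CPM in library 2 against 59.7 to 69.2 CPM. In library 4 of that group, Mcm7 was at 108 CPM against 69.8 to 79.6 CPM and Cenpe at 128 CPM against 80.9 to 92.8 CPM. Library 4 also had the lowest T cell sum (9.78 CPM) and the highest macrophage sum (3760 CPM) of 4T1 CTRL. The part of these sums in the levels was not tested. In 4T1 C269, Mcm4 was at 59.6 CPM in library 7 against 35.4 to 39.7 CPM.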

How the results depend on the processing

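Under C269, 0 members passed in any population under every alternative tried. The number of genes passing did depend on the test. In 4T1 it was 0, against 606 in the fit of all 30 libraries, 998 in DESeq2 and 98 in DESeq2 without libraries 9 and 10. In CD4 it was 0, against 83 with no filter on low counts, 17 in DESeq2 and 0 to 10 with 1 library left out (10 without library 15). In CD8 it was 1, against 0 in the fit of all 30 libraries, 162 with no filter, 18 in DESeq2, 0 without libraries 27 and 29 and 0 to 1 with 1 library left out. Between CTRL groups, CD8 against CD4 gave 1032 genes, against 1582 in DESeq2, 2823 in the fit of the 2 groups compared, with 17 members lower, and 564 to 1170 with 1 library left out (3 to 7 members lower). 4T1 against CD4 gave 868 genes, against 1715 in DESeq2, 1570 without libraries 9 and 10, 1657 without 1 and 3, and 426 to 1072 with 1 library left out (1 to 3 members lower). 4T1 against CD8 gave 10 members higher without libraries 1 and 3, and 3803 to 5122 genes with 1 library left out (4 to 9 members higher, 5 to 7 lower). The share of all genes without libraries 1 and 3 is not given here, so that count of 10 is not read as a result about the members. Differences of C269 effects gave 19 genes for CD8 minus CD4 in DESeq2 (0 to 1 with 1 library left out). 4T1 minus CD4 gave 6 with no filter, 74 in DESeq2, 0 without libraries 9 and 10 and 0 to 16 with 1 left out. 4T1 minus CD8 gave 58 with no filter, 617 in DESeq2 and 1 to 220 with 1 left out. Directions turned in 4T1 without libraries 9 and 10, for Stmn1 (-0.89 in edgeR, -0.94 in DESeq2), Mki67 (-0.015 and -0.046) and Pcna (0.060 and 0.032), and for Stmn1 in the difference 4T1 minus CD4 (-0.33). Mcm5 in CD8 lay near 0 and turned to -0.0078 in the fit of all 30 libraries, -0.022 with no filter and -0.00027 without libraries 27 and 29, and ran from -0.25 to 0.23 with 1 library left out (-0.21 to 0.29 in 4T1). With no filter Tpx2 no longer passed for CD8 against CD4 nor Mcm7 for 4T1 against CD4, and Mcm4 did not in the fit of the 2 groups compared. The cause of these changes was not tested. The alternatives without libraries 1 and 3, without 27 and 29, of 2 groups alone, and of DESeq2 without 9 and 10 were chosen after seeing the data. No paired analysis was possible because the count columns carry no replicate letter. Low counts kept Stmn1 out of the CD8 fit, where it fell below the filter. The fit of all 30 libraries did test it.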
